A study of Mus musculus with 2 samples.

Results

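The mm9 mouse assembly sets aside sequence that could not be put in order on a chromosome. Contigs known to belong to a chromosome, but with no fixed place on it, are strung together under that chromosome's name with the ending _random, and contigs of unknown chromosome are strung together as Un_random. All 10 kb windows with read depth above 0 in either RNA-seq track were taken on the sequences whose names end in _random, leaving out those of chromosomes X and Y. This gave 557 windows on 10 scaffolds, of 138862 windows with depth in the whole series. Depth was present in 517 of the 557 windows in the 2C::tomato+ library and in 424 in the 2C::tomato- library. In 133 windows it was present in the 2C::tomato+ library only, and in 40 in the 2C::tomato- library only.

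The study sequenced mRNA from mouse embryonic stem (ES) cells that had been sorted by flow cytometry into 2C::tomato+ and 2C::tomato- cells, here called positive and negative. All cells had the same background per the labels, a mixed strain with floxed Kdm1a on both alleles (Kdm1a FL/FL) and a CreERT transgene, and all were grown on gelatin in medium with hygromycin at 150 ug/ml. The labels name no agent that activates CreERT and give no passage or clone. They also describe ZP3::Cre mouse crosses for oocytes and embryos, which neither of these libraries holds. There was 1 library per population, so no difference below has a replicate check and no p-value is given. Reads were not assigned to genes here, so neither the ES cell identity nor the Kdm1a level was checked against marker genes.

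The 2C::tomato reporter uses the long terminal repeat of MuERV-L, an endogenous retrovirus that is switched on when the embryo starts to transcribe its own genome at the 2-cell stage. A small share of ES cells in culture enters a state in which this retrovirus and many multicopy genes of the early embryo are expressed. Recently duplicated gene families are also the kind of sequence that assemblies fail to place, since near-identical copies cannot be ordered. Mouse chromosome 5 is known for a multicopy family of PRAME-type genes, and chromosome 1 for a repeated region with Sp100-related sequence. No mm9 annotation was used here, so no window below was assigned to a gene.

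The positive track decoded into 37059813 alignments of 72 bases and the negative track into 33833215. On the scaffolds there were 134662 positive and 116829 negative alignments, which is 0.363% and 0.345% of the libraries. A ratio below is the positive share of all alignments over the negative share, with a 95% counting interval in parentheses. The alignment settings are not given, but identical start patterns recurred at separate places in both libraries, and a read is therefore taken here to be listed at more than 1 place. Reads are also not independent molecules, so the intervals cover counting error only and are too narrow. In bulk libraries, more cells with a transcript and more of it per cell cannot be told apart.

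As a whole the scaffolds were covered almost alike in both populations, while a large minority of their windows was far higher in the positive library. The ratio over all scaffold alignments was 1.05 (1.04 to 1.06). The bases covered differed more, 412396 positive against 214583 negative, or 1.92-fold, where the placed chromosomes had 1.21-fold. A total of 243 windows had 20 or more alignments over both libraries and were compared. In 86 of them, or 35.4%, the positive share was at least 4 times the negative one and the interval excluded 1, and these are called 4-fold higher below. Over all sequences of the genome 1.69% of windows met this rule, and over the placed chromosomes alone 1.52%. None of the scaffold windows was at least 4-fold lower, against 0.062% over all sequences and 0.0624% over the placed chromosomes. At the 2-fold rule 99 scaffold windows were higher and 1 was lower, against 4.62% and 0.827% over all sequences and 4.44% and 0.83% over the placed chromosomes. The median window ratio was 1.47 on the scaffolds and 1.02 on the placed chromosomes.

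Most windows lay either near a ratio of 1 or far above it, with some in between. By the choice of the 4-fold limit the called windows are higher, so the following describes their size only. The 86 higher windows held 10443 positive and 185 negative alignments together, a ratio of 51.5 (44.6 to 59.9), and 28 of them had no negative alignment. The other 157 windows held 123165 and 116039, a ratio of 0.969 (0.961 to 0.977). Of the compared windows, 138 lay between 0.5 and 2, 18 between 2 and 4, 21 between 4 and 16, and 65 at 16 or above. Only 1 lay at or below 0.5. Next to the limit, the window at 140001 of 8_random had a ratio of 3.57 and was not called, and that at 680001 of 8_random had 4.29 and was. None of the 25 windows with 1000 or more alignments was 4-fold higher, against 31.9% of the 47 windows from 200 to below 1000. Of the 85 windows from 50 to below 200 alignments 50.6% were 4-fold higher, and of the 86 from 20 to below 50 alignments 32.6%. With 1000 or more alignments 0.33% of placed windows were 4-fold higher, so none among 25 scaffold windows is close to the placed share. From 200 to below 1000 alignments 0.50% of placed windows were 4-fold higher, with 1.52% and 3.82% in the thinner classes. The 314 windows under 20 alignments held 1054 positive and 605 negative alignments in all, a ratio of 1.59 (1.44 to 1.76).

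**Figure D1:**
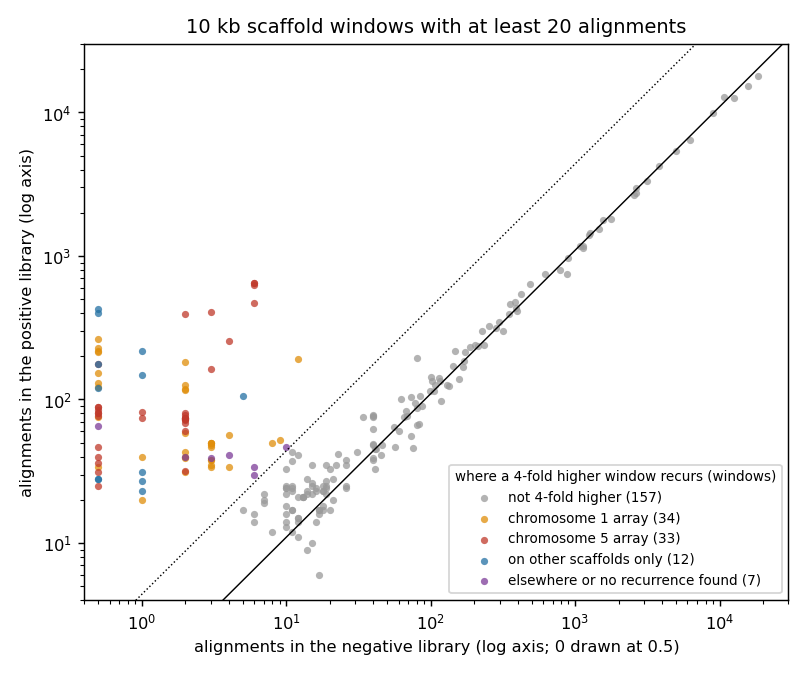
Alignments of each of the 243 compared scaffold windows in the negative library (horizontal, log axis, 0 drawn at 0.5) and in the positive library (vertical, log axis), coloured by where a 4-fold higher window recurs, with windows tied to an array through another scaffold window drawn in that array's colour. The solid line marks equal shares of the libraries and the dotted line the 4-fold ratio, and the densest windows, up to more than 10000 alignments, lie close to the line of equal shares, while thinner windows also lie between the lines.

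The scaffolds differed from each other far more than their sum shows. Scaffold 5_random stood out, with 1881 positive and 79 negative alignments and a ratio of 21.7 (17.4 to 27.6). All 11 of its compared windows were 4-fold higher. Un_random followed with 38 of 79 windows, 1_random with 26 of 65 and 8_random with 11 of 30. The scaffolds 13_random, 17_random, 4_random, 9_random and 7_random had none in 16, 19, 9, 13 and 1 compared windows. The single window of 3_random held 5 positive alignments and 1 negative, too few to compare.

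On Un_random the higher windows held 5706 positive and 53 negative alignments, a ratio of 98.3 (75 to 131). They took up few of its alignments, so the whole of Un_random had 61694 and 52011 and a ratio of 1.08 (1.07 to 1.10), with 0.980 in its other compared windows. On 1_random the higher windows held 2158 and 73, a ratio of 27 (21.4 to 34.6), and the others had a ratio of 0.931. A single window of 1_random held 80.0% of that scaffold's alignments, and its total, 24028 and 21465, had a ratio of 1.02 (1.003 to 1.04). On 8_random the higher windows held 802 and 38, a ratio of 19.3 (13.9 to 27.4), and the others had a ratio of 1.04. The bases covered were 5.58-fold higher in the positive library on 5_random, 2.40-fold on 1_random, 2.24-fold on Un_random and 1.98-fold on 8_random, against 1.13-fold on 13_random, 1.09-fold on 17_random, 1.17-fold on 4_random and 1.15-fold on 9_random. A wider coverage was not limited to scaffolds with higher windows. It was 3.93-fold on 7_random, with 5084 against 1294 bases, and 2.18-fold on 3_random, with 6 alignments in all.

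**Figure D2:**
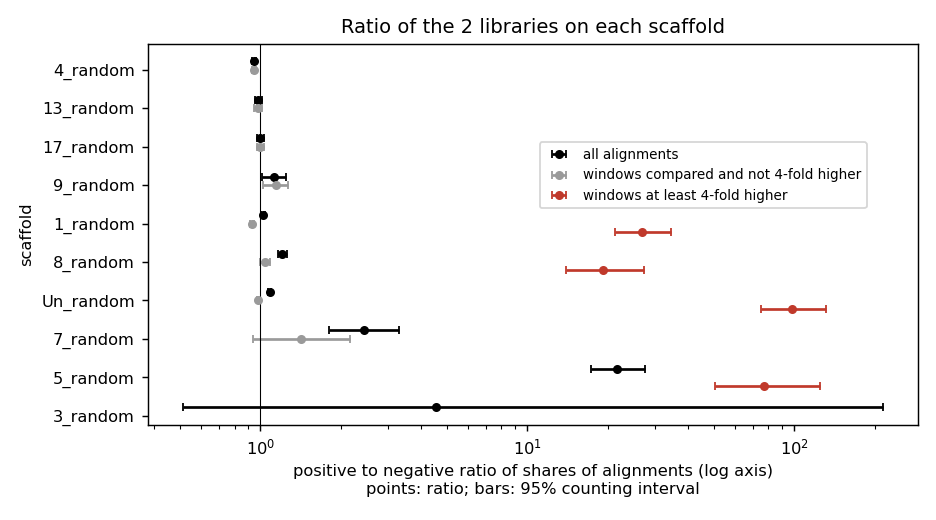
Positive to negative ratio of shares of alignments on each scaffold (horizontal, log axis; bars are 95% counting intervals), for all alignments, for the compared windows that were not 4-fold higher and for those that were. The higher windows lie between 19.3 on 8_random and 98.3 on Un_random, while the other windows of 1_random, 8_random and Un_random lie close to 1.

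The higher windows were gathered in long stretches of a few scaffolds. On 1_random, 25 of the 41 compared windows from 480001 to 1140000 were 4-fold higher, with 2128 positive and 67 negative alignments and a ratio of 29.0 (22.7 to 37.6). Of the 20 windows before this stretch 1 was 4-fold higher, and the other 19 had a ratio of 0.920. On 8_random the stretch ran from 10001 to 210000, with 9 of 14 windows and a ratio of 29.9 (19.6 to 48.0). From 210001 to the end of 8_random 2 of 15 windows were 4-fold higher and the other 13 had a ratio of 1.01.

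Un_random held 4 such stretches. From 1 to 130000, 4 of 5 windows were 4-fold higher, and the fifth, which starts at 10001, had 9843 and 8943 alignments and a ratio of 1.005. From 680001 to 2230000, 28 of 30 windows were 4-fold higher, with 3816 and 44 alignments and thus a ratio of 79.2 (58.9 to 109). All 3 windows from 2880001 to 2910000 were 4-fold higher, with 546 and 2, and all 3 from 3820001 to 3850000, with 291 and 2. The gaps between these stretches and the rest of the scaffold up to base 5900358 held none. On 5_random the higher windows spread from 1 to 350000.

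Joined within 100 kb of each other, the higher windows formed regions whose ratios differed widely. The region from 480001 to 1000000 of 1_random had 1792 positive and 63 negative alignments and a ratio of 26.0 (20.2 to 33.9), while that from 1110001 to 1140000 had 336 and 4 and a ratio of 76.7 (29.7 to 283). The region from 10001 to 90000 of 8_random had 674 and 19, a ratio of 32.4 (20.6 to 54.1). The single region of 5_random had 1777 and 21, a ratio of 77.3 (50.4 to 125). These intervals of 5_random and of the longer 1_random region did not overlap. They are too narrow, since a read listed at several places of a region is counted at each. Without recurring sequence, as given at the end, the longer 1_random region had the higher ratio.

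Among regions of Un_random with at least 100 alignments, that from 840001 to 970000 had the lowest ratio, with 280 and 7 alignments and 36.5 (17.5 to 91.7). The neighbours from 1120001 to 1480000, from 1580001 to 2000000 and from 2120001 to 2230000 had 482 and 4, 2185 and 22, and 830 and 8, with ratios of 110, 90.7 and 94.7 and intervals that overlapped. The ratio was 192 (82.1 to 593) from 1 to 130000 and 133 (36.4 to 1102) from 3820001 to 3850000. The upper bounds of both rest on 5 and 2 negative alignments.

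**Figure D3:**
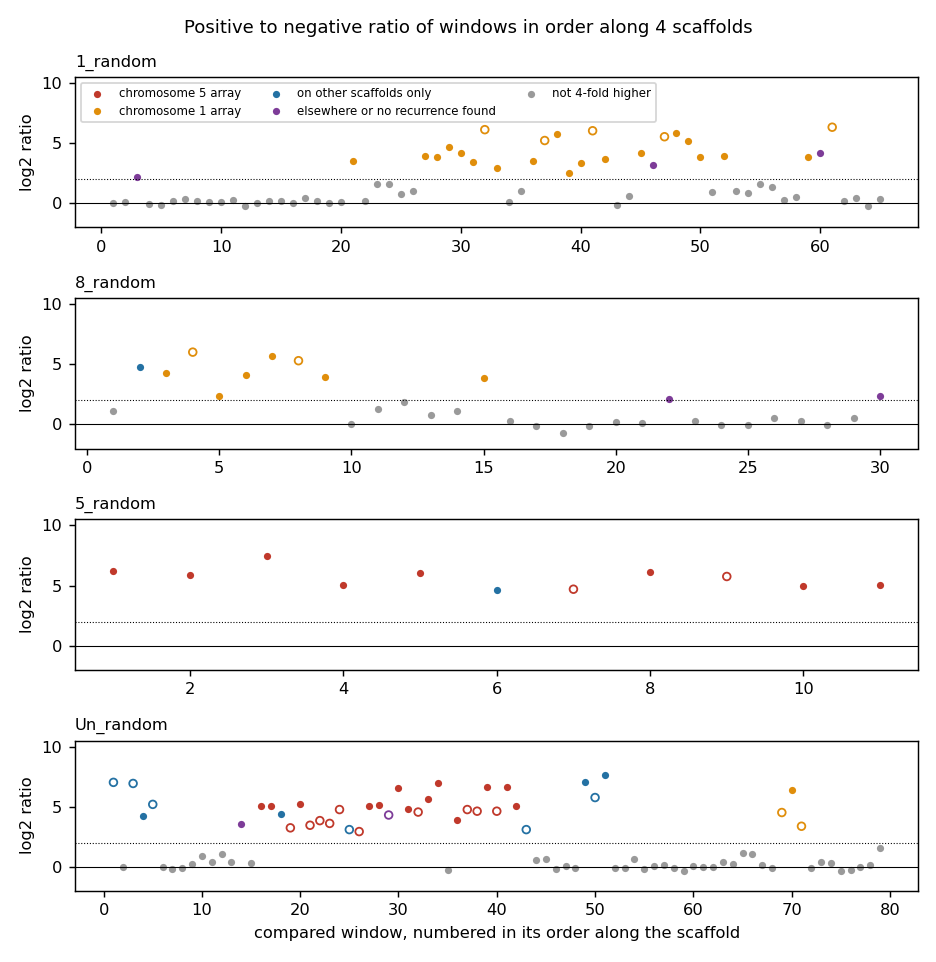
Log2 positive to negative ratio (vertical) of the compared windows of 1_random, 8_random, 5_random and Un_random, numbered by their order along the scaffold (horizontal) and coloured by where they recur; open circles had 0 negative alignments and use 3 in place of 0. The dotted line is the 4-fold ratio, and the higher windows sit in blocks of neighbours, with all 11 compared windows of 5_random above the line.

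Most of the alignments in the higher windows lay in sequence that recurs elsewhere in the genome, as they did in the other compared windows. Recurrence was read from the data, as the same pattern of read starts in both libraries at another place. If these are the same reads listed at several places, the copy that was transcribed cannot be told apart from the others. Over all scaffold windows 50.5% of alignments recurred on a placed chromosome, 30.4% on scaffolds only, 16% were distinctive and found at 1 place, and 3.09% had too few starts to tell. In the 86 higher windows these shares were 66.3%, 14.7%, 5.94% and 13.1%. In the other compared windows they were 50.1%, 31.3%, 16.6% and 2.02%. The recurring alignments of the higher windows were 6983 positive and 59 negative where they also recurred on placed chromosomes, a ratio of 108 (83.7 to 142), and 1551 and 11 where they recurred on scaffolds only, a ratio of 129 (71.7 to 258). Alignments of these windows at 1 place were 631 positive and 0 negative. Those with too few starts to tell were 1278 and 115, a ratio of 10.1 (8.38 to 12.4). A stretch needed at least 20 starts over both libraries, and in these windows nearly all starts were positive. The classes thus depend on the positive counts, and their ratios are not compared with each other.

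**Figure D4:**
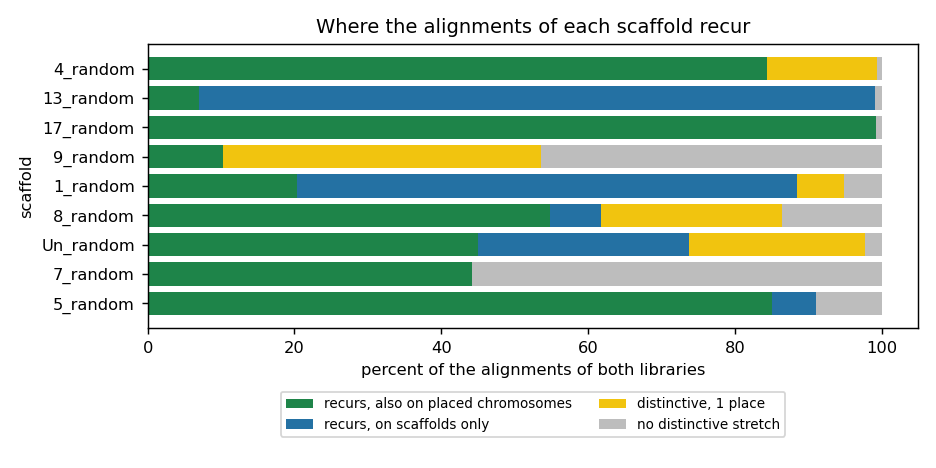
Percent of the alignments of both libraries (horizontal) on each scaffold that recur also on placed chromosomes, recur on scaffolds only, are distinctive and found at 1 place, or have no distinctive stretch; 3_random, with 6 alignments, is not drawn. Recurrence is not limited to the scaffolds with higher windows: 17_random recurs almost wholly on placed chromosomes and 13_random on scaffolds only, and neither had a 4-fold higher window.

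A tandem array on chromosome 5, from 93910001 to 96240000, shared sequence with 32 of the 86 higher windows, 10 on 5_random and 22 on Un_random. These 32 windows held 5358 positive and 60 negative alignments, a ratio of 81.5 (63.2 to 107). Here and in the classes below, a read listed in several windows is counted in each, which makes the interval too narrow. The lowest window had 31 positive alignments, the median was 79.5 and the highest had 648, while none had more than 6 negative ones. Of the 48 windows of the chromosome 5 array that shared sequence with them, 45 were 4-fold higher and the others had under 20 alignments. Together the 48 held 8117 and 97, a ratio of 76.4 (62.5 to 94.3). They are those tied to higher scaffold windows, so this is not a separate observation. No compared scaffold window tied to this array fell short of the 4-fold rule, and 6 more under 20 alignments held 41 and 19.

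The densest element of this class was a unit of 3 covered blocks of 317, 628 and 870 bases. It was present at 6 places on the scaffolds. On 5_random the copies ran from 18834 to 21952 and from 237318 to 240436, and each held 628 positive and 6 negative alignments. On Un_random the copy from 1586805 to 1589924 held 620 and 6, and the copy from 1738982 to 1742102 held 541 and 6. The Un_random copies from 1992015 to 1995137 and from 2132466 to 2135588 held 633 and 6 each. All 6 copies had the same order of these 3 blocks. The depth profile was nearly the same in all but the copy with 541 positive alignments. The 6 copies are therefore not treated as 6 separate measurements. At 520 bases from the start of the longest block the depth was 16.15 in the copy with 541, against 43.6 in the 5_random copies. The ratio lay between 82.3 and 96.3 in every copy. The copy with 541 positive alignments differed in length too, with a first block of 319 bases and a last block of 863.

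The longest block of the unit recurred at 9 places on chromosome 5, from 94353849 to 96161592, all in the opposite orientation. In the Un_random copy from 1994268 to 1995137 this block had 322 positive alignments and 1 negative. Between the long blocks lay short ones with 1 to 5 positive alignments and no negative one. The copies on 5_random were part of a longer duplication, since the sequence from 8787 to 21782 recurred in the same order 218484 bases further along the scaffold.

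**Figure D5:**
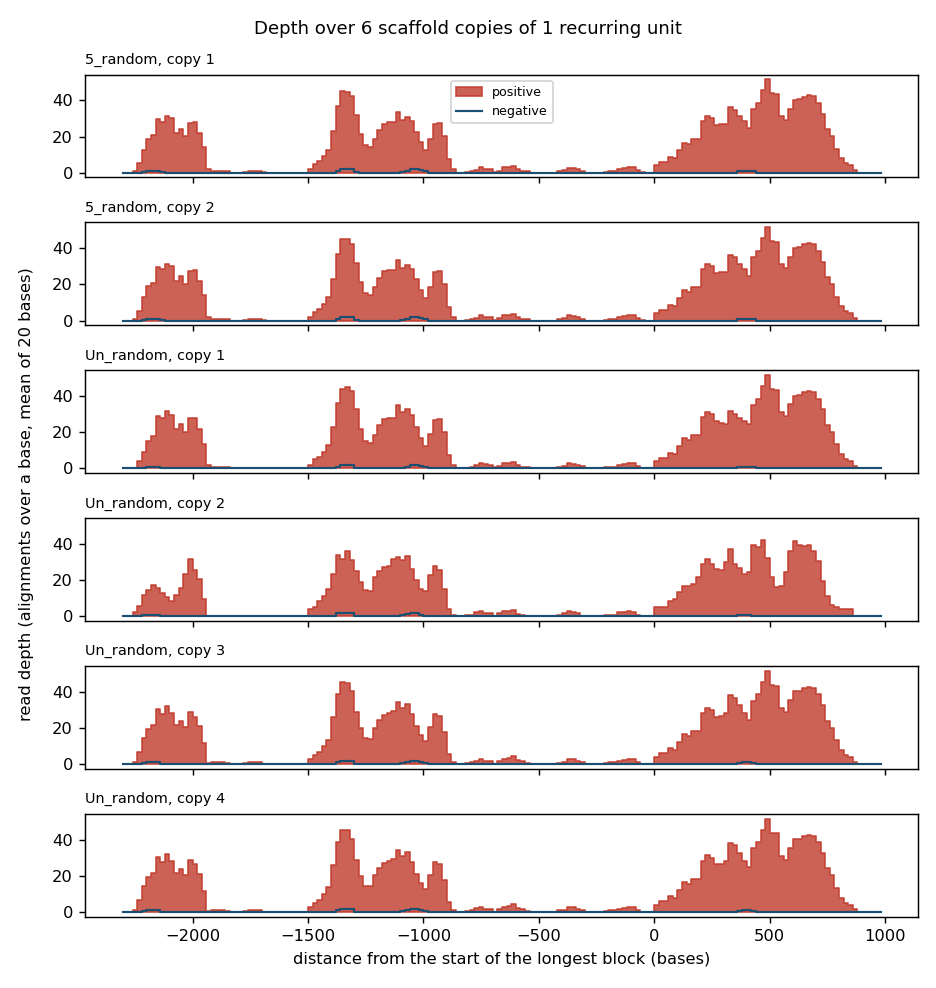
Read depth (vertical, alignments over a base, mean of 20 bases) along the 6 scaffold copies of the unit of 3 blocks, by distance in bases from the start of the longest block (horizontal), for the positive library (filled) and the negative library (line). The profile repeats from copy to copy with positive peaks above 40, and the Un_random copy with 541 positive alignments has lower peaks in its middle and last blocks, 36.4 and 42.5 against 45.0 and 51.8 in the 5_random copies.

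A second, thinner element belonged to the same class. It was present in 13 scaffold windows with 679 positive and 32 negative alignments, a ratio of 19.4 (13.6 to 28.6). The 10 of them that were 4-fold higher, 4 on 5_random and 6 on Un_random, held 668 and 17. The other 3 had under 20 alignments and were not higher as a set, with 0 and 5 at 80001 of 5_random, 7 and 5 at 300001 of 5_random and 4 and 5 at 830001 of Un_random. In 8 of the 10 windows the positive count lay between 69 and 74 and the negative count at 1 or 2. These 8 start at 90001, 120001, 310001 and 340001 of 5_random and at 840001, 870001, 1390001 and 2200001 of Un_random. Their coverage was too thin for the search for repeated stretches, and the recurrence was found from runs of 16 start positions in the same spacing. A block of 572 bases from 93044 to 93615 of 5_random, with 24 positive and 0 negative alignments, shared such runs with 8 other scaffold places and 6 on chromosome 5. With 3 counts in place of 0 the ratio of the block was 7.30, and the lower bound from the counts themselves was 5.49.

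Sequence shared with chromosome 1 made up the other large class. Of the 86 higher windows, 29 shared sequence with chromosome 1, 19 on 1_random, 7 on 8_random and 3 on Un_random. They held 2806 positive and 68 negative alignments, a ratio of 37.7 (29.6 to 48.7), with a lowest positive count of 20, a median of 52 and a highest of 265, and negative counts up to 12. A further 5 windows, with 222 and 16 alignments, shared sequence with these windows and not with a placed chromosome. Some of the 5 also shared sequence with each other or with another scaffold window. The placed partners lay from 84980001 to 85290000 of chromosome 1, with 581 and 17 alignments in 9 windows, and from 87350001 to 87510000, with 365 and 6 in 4 windows. A window of chromosome 5 away from its array, from 138160001 to 138170000, shared sequence with 10 of the scaffold windows and had 164 and 5 alignments. All of these placed windows were 4-fold higher as well, but they are those tied to higher scaffold windows. From 84980001 to 87510000 of chromosome 1, sequence was also shared with 13 compared scaffold windows that were not 4-fold higher, with 492 and 262 alignments and ratios from 0.913 to 3.57. Of the 12 placed windows these were tied to, 2 were 4-fold higher. Over all 43 scaffold windows tied to this interval, the counts were 3310 and 330, a ratio of 9.16 (8.17 to 10.3).

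In 5 of the 19 windows of this class on 1_random there was no negative alignment, and they include 3 of the 5 highest windows of all the scaffolds by the lower bound. The window that starts at 1130001 held 265 positive and 0 negative alignments. With 3 counts in place of 0 its ratio was 80.6, and the lower bound from the counts themselves was 65.1. The window at 620001 held 230 and 0, which gave 70.0 in the same way and a lower bound of 56.5. The window at 770001 held 216 and 0, which gave 65.7 and a lower bound of 53.0. Their coverage was spread over 26 to 28 blocks each. The window at 230001 of 5_random, which holds part of a copy of the 3-block unit, had 14. The densest block of the window at 770001, from 772941 to 773262, had 57 and 0 alignments in 322 bases and recurred at 9 other scaffold places, 5 on 1_random, 2 on 8_random and 2 on Un_random. On placed chromosomes it was found at 3 places of chromosome 1, near 85108395, 85268901 and 87495197, and at 1 place of chromosome 5, near 138162972.

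Windows of the same stretches differed in how large the ratio was. On 1_random the window at 580001 had 191 positive and 12 negative alignments, and the window at 750001 had 50 and 8, while the window at 850001 had 153 and 0. On 8_random the window at 30001 had 213 and 0, the window at 70001 had 130 and 0, and the window at 40001 had 52 and 9. The 16 compared windows of the 1_random stretch that were not 4-fold higher held 478 positive and 250 negative alignments, for a ratio of 1.75 (1.49 to 2.04). Windows at 530001 and 1030001 of 1_random were of this kind, with 75 and 40 and with 78 and 40 alignments, as was the window at 150001 of 8_random, with 77 and 40. All 3 shared sequence with the chromosome 1 interval.

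The remaining higher windows lacked a partner in either array. Of these, 12 recurred on scaffolds only, with 1736 positive and 10 negative alignments and a ratio of 158 (86.0 to 331). The highest windows of all scaffolds were among these 12. So was the window at 10001 of 8_random, with 31 and 1. It shared sequence with the windows at 710001 and 990001 of 1_random, which are tied to chromosome 1 through other scaffold windows. The first window of Un_random, from 1 to 10000, held 427 positive and 0 negative alignments. With 3 counts in place of 0 its ratio was 130, and the lower bound from the counts themselves was 105. The window from 30001 to 40000 of Un_random held 401 and 0, which gave 122 in the same way and a lower bound of 98.8. In the first window 73.3% of alignments lay in a block of 696 bases from 3101 to 3796, with 313 and 0. In the other, 62.3% lay in a block of 819 bases from 37374 to 38192, with 250 and 0. These blocks shared 1 distinctive stretch with each other and none with a placed chromosome. In all, 14.5% and 15.5% of the alignments of these windows recurred.

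Near these windows, those at 110001 and 120001 of Un_random held 105 and 5 and 120 and 0 alignments. A block of 267 bases with 97 positive and 0 negative alignments was present in both. The windows at 2880001, 2890001 and 2900001 of Un_random formed a trio with 149 and 1, 178 and 0, and 219 and 1. The trio had the highest ratio of the joined regions, 249 (68.7 to 2063), although the wide interval reflects the 2 negative alignments it rests on. The trio's densest blocks recurred within the trio and at no placed site, among them 1 of 672 bases from 2900378 to 2901049 with 168 and 1.

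In 5 of the higher windows no recurrence was found, and they held 210 and 18 alignments, a ratio of 10.7 (6.58 to 18.3). Of these, the window at 1470001 of Un_random had 65 positive and 0 negative alignments and the window at 820001 of 8_random had 34 and 6. Another 2 windows recurred outside both arrays, with 86 and 13 alignments and thus a ratio of 6.04 (3.35 to 11.8). They were the window at 680001 of 8_random, with 47 and 10, which shared sequence with chromosome 8, and the window at 680001 of Un_random, with 39 and 3, which shared sequence with chromosome 4. The 3 lowest ratios among the higher windows lay outside the array classes, 4.29 and 5.17 at 680001 and 820001 of 8_random and 4.56 at 60001 of 1_random.

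The windows with most alignments were covered alike in both libraries, and most of them were repeated too. The window at 160001 of 1_random held 18075 positive and 18328 negative alignments, a ratio of 0.900 (0.882 to 0.919). The window at 270001 of Un_random held 15322 and 15696, a ratio of 0.891 (0.872 to 0.911). Both hold all or part of a block of 1040 bases with the same 15723 positive and 15751 negative alignments at each place, so they are not treated as separate measurements. The block lies from 168311 to 169350 of 1_random and from 279180 to 280219 of Un_random, where its end falls in the next window. Within this pair the ratios were just below 1, and the intervals excluded 1.

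The whole of 4_random held 23792 positive and 22962 negative alignments, and its ratio was 0.946 (0.929 to 0.963). On chromosome 4, 84.3% of these alignments recurred. Its densest window, at 10001, held 12700 and 12563, a ratio of 0.923 (0.900 to 0.946). On 17_random, with 9888 and 9041 and a ratio of 0.998 (0.97 to 1.03), 99.3% of alignments recurred on chromosome 17. Its densest window, at 270001, held 5375 and 4971. On 13_random, with 6764 and 6282 and a ratio of 0.983 (0.950 to 1.02), 99.1% recurred within 13_random itself. There the sequence from 114695 to 123048 recurred 193910 bases further along. The densest window of 13_random, at 110001, held 1812 and 1771. On these 3 scaffolds most alignments thus recurred too, with ratios near 1.

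The lowest window by its upper bound was that at 370001 of 17_random, with 46 positive and 75 negative alignments and a ratio of 0.560 (0.379 to 0.819). Next was the window at 4330001 of Un_random, with 745 and 884 and a ratio of 0.769 (0.697 to 0.849). Neither was past the 2-fold rule. The only window that was had 6 positive and 17 negative alignments on 9_random, a ratio of 0.322. The other 12 compared windows of 9_random ran from 0.587 to 3.12, the highest with 41 and 12 alignments at 240001, and its densest window, at 50001, held 314 and 283. That scaffold had 804 and 655 alignments in all, with a ratio of 1.12 (1.01 to 1.24), and little of it recurred. The densest window of 8_random, at 740001, held 1170 and 1127.

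On 7_random the difference lay in windows too thin to compare. The scaffold held 168 positive and 63 negative alignments, a ratio of 2.43 (1.81 to 3.31). Its only compared window, at 270001, had 62 and 40, a ratio of 1.42 (0.936 to 2.16). After it came 6 windows from 290001 to 360000 with 5 to 14 positive alignments each and no negative one, singled out after their values were seen. Together they held 65 and 0. They were picked as the windows after the last one with a negative alignment, so the 0 is set by the choice and no ratio is given.

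Covered blocks with positive alignments only were more common on the scaffolds than on the placed chromosomes. A block here is an unbroken run of bases with depth in either library. Of 3814 blocks on the scaffolds, 2272 had positive alignments only and 701 had negative ones only, or 59.6% and 18.4%, and 1964 consisted of a single alignment. On the placed chromosomes, where the positive library is deeper too, the shares were 42.5% and 23.7%. Among the 573 blocks with at least 10 alignments 153 had positive alignments only, or 26.7%, and 0 had negative ones only, against 0.553% and 0.0625% of such blocks on placed chromosomes. Among the 196 with at least 50 alignments 17 had positive ones only, or 8.67%, and again 0 had negative ones only, against 0.133% and 0% on placed chromosomes. The negative-only block with most alignments had 6, and the positive-only block with most had 313. Blocks that are copies of each other are counted here at each place.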

How the data were processed

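The authors deposited 1 coverage track per library, a signal of read depth per base that is not scaled to library size. The submitters' processing notes name Bowtie and the build mm9; the version, settings and strand are not given in the sources used. Every step in coverage decoded into whole starts of alignments of 72 bases, and 10 kb windows took the alignments that start in them (Python 3.11.15, numpy 2.4.6, scipy 1.17.1). Ratios have exact conditional binomial (Clopper-Pearson) intervals. A window was called with at least 20 alignments and an interval that excluded 1.

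Repeated stretches were 64 bases with at least 8 start positions and 20 starts whose pattern in both libraries recurred, in either orientation. Runs of 16 start positions, the long scaffold stretches (4-fold higher windows joined within 150 kb, at least 3) and the 3-block unit were added after the data were seen. Windows named are the 5 highest and 5 lowest by the bound nearest 1 with at least 50 alignments, the densest of each scaffold and joined regions (within 100 kb) with at least 100 alignments; others were chosen after their values were seen. The members and rules were chosen with earlier results of these data known. The scripts were tested on simulated data. Alternatives changed the count, repeats, scaling, window size and minimum. No mm9 sequence or annotation was used, so no sequence is shown.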

Additional observations from a re-analysis of the deposited data

How the results depend on the processing

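No replicate could be left out, and depth limits thin windows most. No paired analysis was possible because there is a single library on each side. Of 209 recomputed values 144 stayed within the counting interval, or within 1.5 times for counts. Rescaling by the median ratio moved none of them.

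The ratio of all scaffolds was 1.29 with start positions counted 1 time, 1.28 without repeated stretches, 1.09 weighted by places, 1.17 without the densest windows and 1.14 without repeated stretches and runs, a setting chosen after seeing the data. In the same order the ratio was 1.504, 1.77, 1.10, 1.73 and 1.33 on 1_random and 1.47, 1.23, 1.11, 1.17 and 1.13 on Un_random. With the first 4 settings it was 1.35, 1.39, 1.29 and 1.30 on 8_random and 0.914, 1.01, 0.968 and 0.974 on 4_random, where leaving out stretches and runs gave 1.00003. The ratio of 4_random thus moved from just below 1 to about 1 without repeats. Of its alignments 83.0% lay in repeated stretches, so this rests on the smaller part. By positions 17_random had 0.926, and without repeats 0.842. On 5_random the ratio was 9.31 without repeats, 10.7 weighted and 1.64 without stretches and runs. On 7_random it was 3.98 without repeats and 4.21 without the densest window or without stretches and runs, and on 13_random 0.883 without both.

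Without stretches and runs the joined regions had lower ratios: 7.02 (1_random 480001), 27.1 (1_random 1110001), 1.62 (5_random 1), 9.62 (8_random 10001), 39.3 (Un_random 1580001), 5.93 (Un_random 2120001), 45.0 with 3 in place of 0 (Un_random 2880001) and 28.8 (Un_random 3820001). At Un_random 840001 it turned to 0.365, with 2 positive and 5 negative alignments left. By its construction this setting removes the alignments that recur.

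Windows of 50 kb gave 48 higher and 2 lower at the 2-fold rule and 37 higher at the 4-fold rule, of 122 compared. A minimum of 50 alignments gave 63 higher and 0 lower at the 2-fold rule. Without stretches and runs 33 windows were higher at the 2-fold rule and 23 at the 4-fold rule, of 104 compared. Windows lower by 2-fold numbered 3 without repeats, 2 with windows of 5 kb and 8 with no minimum, and by 4-fold 2 without repeats and 4 with no minimum. Stretches with at least 40 starts held 75% of scaffold alignments against 77.6%, and stretches or runs 80.9%. Among the named windows 9 values moved. Without repeats the window at 230001 of 5_random had 15.8 in place of 71.2, and the window at 270001 of 17_random 4.11 in place of 0.987. In that 17_random window 99.9% of alignments lay in repeated stretches, so the 4.11 rests on the few that were left.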
